A study of Mus musculus with 30 samples.

Results

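The genes described here are the 9 genes of MHC class I presentation that were chosen by symbol, *H2-K1*, *H2-D1*, *H2-T23*, *B2m*, *Tap1*, *Tap2*, *Tapbp*, *Nlrc5* and *Erap1*. All 9 were present among the 13353 genes of the bone marrow (BM) table and among the 17059 genes of the table for adipose tissue macrophages (ATMs), and all 9 passed the low-count filter in both. The RNA came from whole BM cells and from F4/80+ macrophages sorted from visceral adipose tissue, with 3 libraries for each of 5 groups in each tissue. The labels describe mice 12 to 14 weeks old, of both sexes, all given as C57BL/6J. In the study recipients were already near this age at transplantation, and treatment began 8 weeks later. The labelled age is therefore not read as the age at sampling. Lethally irradiated recipients, WT C57BL/6 or leptin-deficient Lep Ob/Ob, received equal numbers of CD45.2+ Shp2E76K/+;LysM-Cre+ BM cells and of Boy/J CD45.1+ competitor cells, so that every group described carries both kinds of donor cell as far as the protocol states it. LysM-Cre switches on the Shp2 gain-of-function allele in myeloid cells, and the competitor cells lack it, so each library is a mixture. The donor is not given for single samples. The group WT holds the samples titled wild type, read here as WT recipients, and the group Vehicle holds *Ob/Ob* recipients given vehicle. For ATMs a figure legend of the study instead sets *Ob/Ob* mice with mutant donor cells against WT donor cells. Recipient and donor of the WT ATMs are therefore not settled. The other groups are *Ob/Ob* recipients treated for 30 days from 8 weeks after transplantation with the GLP-1 receptor agonist beinaglutide (GLP1RA, 3 mg/kg, subcutaneously), with an anti–IL-17A antibody (antiIL17A, 200 µg per mouse, intraperitoneally, 3 times a week) or with both (Combo). With the WT group read as WT recipients, genotype of the recipient and any injection of vehicle cannot be told apart in Vehicle vs WT.

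MHC class I molecules show peptides from inside the cell to CD8+ T cells. The heavy chains H2-K1 and H2-D1, the classical class I molecules of this strain, and the nonclassical H2-T23 (Qa-1) pair with β2-microglobulin, the product of *B2m*. Peptides made by the proteasome are pumped into the endoplasmic reticulum by the transporter Tap1/Tap2, trimmed there by the aminopeptidase Erap1 and loaded with the help of tapasin, the product of *Tapbp*. Nlrc5 is the transactivator that binds with other factors at class I promoters, and interferons induce it together with its targets.

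To show where such factors could bind, the RefSeq promoter windows (GRCm38.p6, 250 bases before to 50 after the annotated start) were read for 7 of the 9 members. No window was matched for *Tap2* and *Nlrc5*. Of these 7, the windows of *H2-K1*, *H2-D1* and *B2m* are printed because they share an arrangement of motifs, and that of *Erap1* because it was the member with the smallest changes. Capitals mark the letters of the motifs searched on both strands, GAAANNGAA (core of IRF and ISRE sites), TTCNNNGAA (GAS), GGGATTCCC (κB site of class I enhancer A), TGACG (X2 or CRE half-site) and ATTGG (Y box). The first 2 patterns can share bases with each other.
H2-K1 promoter, chr17:34000298-34000597, minus strand: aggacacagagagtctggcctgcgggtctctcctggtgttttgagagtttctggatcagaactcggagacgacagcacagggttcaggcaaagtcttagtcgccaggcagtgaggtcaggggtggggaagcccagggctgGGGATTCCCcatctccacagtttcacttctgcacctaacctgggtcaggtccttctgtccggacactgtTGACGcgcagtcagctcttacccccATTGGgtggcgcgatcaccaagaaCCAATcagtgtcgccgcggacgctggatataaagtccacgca
H2-D1 promoter, chr17:35262844-35263143, plus strand: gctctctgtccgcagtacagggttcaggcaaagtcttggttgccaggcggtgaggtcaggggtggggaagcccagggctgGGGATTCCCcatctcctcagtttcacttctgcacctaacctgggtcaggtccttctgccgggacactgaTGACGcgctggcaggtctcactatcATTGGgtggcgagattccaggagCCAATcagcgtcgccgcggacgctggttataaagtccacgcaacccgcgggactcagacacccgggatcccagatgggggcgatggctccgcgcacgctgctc
B2m promoter, chr2:122147437-122147736, plus strand: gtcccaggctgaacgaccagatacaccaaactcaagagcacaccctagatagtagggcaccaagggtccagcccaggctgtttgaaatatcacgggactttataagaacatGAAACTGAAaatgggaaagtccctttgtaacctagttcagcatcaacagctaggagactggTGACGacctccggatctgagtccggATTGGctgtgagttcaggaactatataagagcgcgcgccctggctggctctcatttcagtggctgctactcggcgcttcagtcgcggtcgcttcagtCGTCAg
Erap1 promoter, chr13:74639603-74639902, plus strand: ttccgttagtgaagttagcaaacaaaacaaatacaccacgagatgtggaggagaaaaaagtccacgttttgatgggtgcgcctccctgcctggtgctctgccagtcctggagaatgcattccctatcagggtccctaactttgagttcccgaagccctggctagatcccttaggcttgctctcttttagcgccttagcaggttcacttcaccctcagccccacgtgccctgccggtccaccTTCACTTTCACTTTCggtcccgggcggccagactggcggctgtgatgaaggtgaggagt
The heavy chain genes *H2-K1* and *H2-D1* held the κB letters, which 0.353% of all 32851 windows held. In *H2-K1*, *H2-D1* and *B2m* the letters TGACG began 25 bases before ATTGG on the strand of the gene, an arrangement present in 31 of the 32851 windows (0.0944%) on either strand. This distance was taken from the members' own windows, which are among the 31, so its rarity is a description and no test. The *H2-K1* and *H2-D1* windows also resemble each other closely. Taken singly, TGACG occurred in 20.8% of windows and ATTGG in 37.4%. The IRF core letters occurred in *B2m*, in *H2-T23* and, as 2 overlapping copies beginning at bases -9 and -3 relative to the start, in *Erap1*, against 8.56% of all windows. The GAS letters, present in 8.3% of windows, were in none of the 7. These are matches of letters in short windows and say nothing of binding. Sites spelled otherwise than the searched letters are missed, so a window without a match may still hold such a site.

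**Figure D1:**
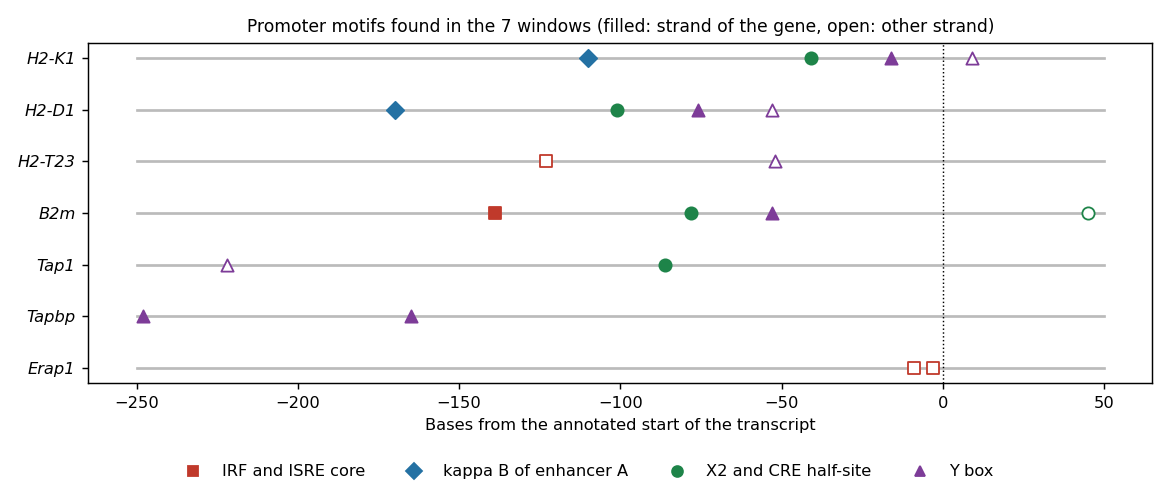
Positions of the searched motifs in the promoter windows of 7 members, in bases from the annotated start (x axis), with 1 line per gene; filled marks lie on the strand of the gene and open marks on the other strand. The half-site and the Y box lie 25 bases apart in *H2-K1*, *H2-D1* and *B2m*.

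On GENCODE M21 (GRCm38), 6 members lie on chromosome 17, *B2m* lies on chromosome 2, *Nlrc5* on chromosome 8 and *Erap1* on chromosome 13. *H2-K1* spans chr17:33996017-34000347, *H2-D1* chr17:35262730-35267499, *H2-T23* chr17:36029773-36032855, *B2m* chr2:122147686-122153083, *Tap1* chr17:34187553-34197225, *Tap2* chr17:34203527-34216321, *Tapbp* chr17:33915899-33929292, *Nlrc5* chr8:94434356-94527272 and *Erap1* chr13:74639568-74693201. Counts cover the exons of these genes. Reads were counted without strand, and a read on several genes was counted for each, so a gene cannot be separated from neighbours that share its exons. Such neighbours covered 29% of the exon bases of *Tapbp*, 18.5% of *Tap2*, 11.5% of *Erap1*, 3.87% of *Tap1* (where it is *Psmb9*), 0.918% of *Nlrc5* and 0% of the other members. Runs of 100 bases that also occur in transcripts of another gene made up 3.59% of the runs in *H2-D1*, 3.15% in *H2-T23* and 0.957% in *H2-K1*, chiefly other class I genes, and the authors kept reads of mapping quality 10 or more.

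Sequencing depth ran from 31086184 to 39925495 counts per BM library and from 24876074 to 45300263 per ATM library. The members took 0.309% to 0.325% of the counts in WT BM, 0.927% to 0.931% in Vehicle BM and 0.209% to 0.253% in treated BM. In ATMs these shares were 0.868% to 0.893%, 2.43% to 2.51% and 0.768% to 0.955%. The biological coefficient of variation was 3.51% in BM and 32.5% in ATMs, so smaller differences pass the test in BM. The labels state 3 biological replicates per group, and no library repeated another, but the libraries of a group lay close together also in transcripts from other tissues and in *Xist* (values follow). Whether they share material was not tested. Libraries also differed in ways that move with the groups. *Xist*, expressed from the inactive X chromosome of female cells, had a mean of 6544 ± 189 normalized counts in Vehicle BM and 3610 ± 70.9 in Combo BM against 1.58 ± 1.39 in WT BM (SD, n = 3), and in ATMs 1250 ± 269 and 1129 ± 119 against 16.3 ± 9.03. GLP1RA and antiIL17A were at 2.17 ± 3.03 and 98.4 ± 13.2 in BM. In Combo vs WT, 5 of 5 sex-linked genes were called in BM and in ATMs, as in Vehicle vs WT. Sex and group therefore cannot be told apart where Vehicle or Combo is set against WT, GLP1RA or antiIL17A, nor in the departure from additive effects. Combo vs Vehicle is not free of this either. In BM 4 of 5 sex-linked genes were called lower there, with a median log2 fold change of -2.13, where 11.1% of all genes were called lower.

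Among the ATM libraries, the summed level of 10 of 10 macrophage markers was 4542 to 4790 CPM (here counts relative to the TMM-scaled library size) in WT, 2579 to 2763 in Vehicle, 10781 to 11218 in GLP1RA, 15920 to 16140 in antiIL17A and 11061 to 11134 in Combo, and none was at 0. In Vehicle vs WT 5 of these 10 were called lower and 2 higher, the latter being *Fcgr1* (3.72 ± 0.11) and *Cd68* (1.01 ± 0.04). The macrophage markers *Adgre1* (F4/80) and *Csf1r* were at 6913 ± 636 and 18150 ± 458 normalized counts in WT and at 1404 ± 373 and 1579 ± 274 in Vehicle. In the same libraries, 7 of the 8 listed neutrophil markers were measured (*Ly6g* was not in the table), and their summed level was 182 to 203 CPM in WT, 20059 to 21283 in Vehicle, 139 to 141 in GLP1RA, 342 to 357 in antiIL17A and 11958 to 12259 in Combo. None of the 7 was at 0 in any group. Stromal and endothelial markers, 6 of 6 measured, summed to 9787 to 10385 CPM in WT ATMs and 4553 to 4819 in Vehicle. In GLP1RA, antiIL17A and Combo they were at 13915 to 14116, 6433 to 6705 and 6674 to 6756. Erythroid markers, 4 of 6 measured, summed to 3843 to 4068 in WT and 6663 to 6770 in Vehicle. The treated groups were at 1422 to 1514, 1152.5 to 1174 and 5271 to 5420, in the same order. Epididymal transcripts summed to 3172 to 3329 CPM in WT ATMs (at most 162 elsewhere), with 5 of 6 markers measured, and pancreatic acinar transcripts to 665 to 674 CPM in Combo ATMs (at most 27.0 elsewhere), also with 5 of 6. *Lcn5*, *Spink11* and *Defb20* were at 0 in Vehicle and Combo, and *Pnlip* was at 0 in every ATM group except Combo. The part of other cells in the results was not tested. In such bulk RNA, fewer cells of a type and less RNA per cell cannot be told apart.

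In BM, RNA of the class I pathway was higher in Vehicle than in WT recipients, a comparison that asks what obesity of the recipient does to BM carrying the mutant cells. Of the 9 members, 8 were called higher by edgeR's quasi-likelihood test, which here means a Benjamini-Hochberg adjusted p below 0.05 and a log2 fold change above 1. Of all genes, 9.44% were called higher. The median log2 fold change of the members was 1.67 against -0.02 over all genes. Replicates of the 2 groups did not overlap for any of the 9, as for 75.8% of all genes. In the same libraries the summed level of 7 of 7 B cell markers was 1210 to 1240 CPM in WT and 345 to 361 in Vehicle, and that of 10 of 10 macrophage markers was 13249 to 13528 and 4178 to 4210. Single macrophage markers went both ways: 6 of the 10 were higher in Vehicle, and their median log2 fold change was 0.13. The part of either marker list in the result was not tested.

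The heavy chains rose together with their partner. *H2-K1* stood at 27083, 28395 and 27852 normalized counts (counts scaled to a common library size) in the 3 WT libraries and at 90023, 91462 and 91549 in Vehicle. The groups stood far apart, a rise of 3.28-fold (log2 1.71 ± 0.02 SE, adjusted p = 2.41e-40). For *B2m*, WT libraries held 40688, 41800 and 41369 and Vehicle libraries 133800, 128812 and 130561, a 3.17-fold rise (log2 1.67 ± 0.02). The nonclassical *H2-T23* rose 3.00-fold from 7248 ± 126 to 21739 ± 300 (SD, n = 3). The rise of *H2-D1* was the smallest of the called members, 2.29-fold from 15381 ± 421 to 35291 ± 658.

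Genes for peptide transport and loading rose as well. *Tap1*, a subunit of the peptide transporter, was at 4315, 4430 and 4282 in WT and at 19723, 20308 and 20195 in Vehicle, a 4.62-fold rise (log2 2.21 ± 0.03). *Tap2*, which encodes the other subunit, rose 2.71-fold, from 3521 ± 143 to 9550 ± 290. *Tapbp* rose 4.58-fold, from 6265, 6351 and 6420 to 28350, 29362 and 29474. The transactivator *Nlrc5* changed most among the members. Its WT libraries held 936, 948 and 904 and its Vehicle libraries 5878, 6153 and 5764, a 6.38-fold rise (log2 2.67 ± 0.05, adjusted p = 1.63e-36). *Erap1*, the trimming peptidase, was not called: its values were 2139, 1841 and 1936 in WT and 3257, 3475 and 3268 in Vehicle, log2 0.76 ± 0.04 with adjusted p = 6.07e-19, which is below the fold limit.

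**Figure D2:**
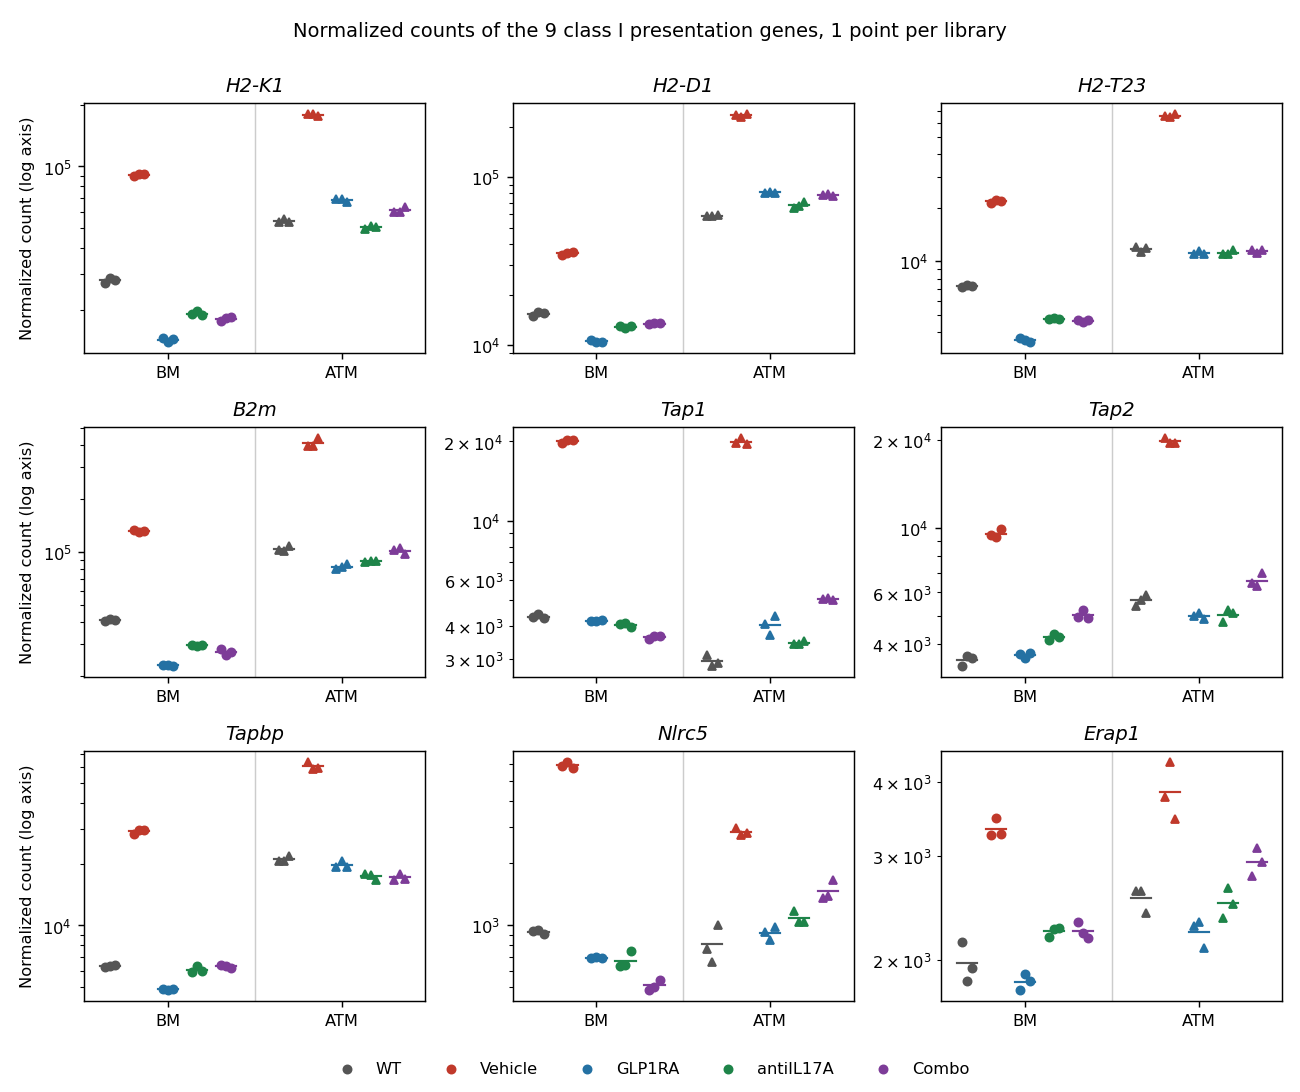
Normalized counts (log axis) of each member in BM (circles) and ATMs (triangles), with 1 point per library, colours for the 5 groups and a bar at each group mean. The 3 Vehicle points of each gene lie above those of the other groups of the same tissue, and the tissues were scaled separately.

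Each treatment asked whether these levels come down in *Ob/Ob* recipients, and all 3 comparisons share the same Vehicle libraries. In BM, 8 members fell with GLP1RA, 8 with antiIL17A and 7 with Combo. Of all genes, 9.08%, 8.46% and 11.1% were called lower. The members' median log2 fold changes were -2.52, -2.20 and -2.23. No treated library overlapped with a Vehicle library in any of the 9, where 75.5%, 76% and 75.7% of all genes did the same. The B cell marker sum was 110 to 111 CPM in GLP1RA, 374 to 382 in antiIL17A and 116 to 120 in Combo. The macrophage sum was 3605 to 3628, 6616 to 6671 and 6534 to 6635, against 4178 to 4210 in Vehicle. Most single macrophage markers were lower than in Vehicle, also where the sum was higher: 4, 4 and 2 of the 10 were higher. Called higher was 1 with each treatment, and 1, 3 and 5 were called lower. Their median log2 fold changes were -0.293, -0.507 and -0.996. For the erythroid list, with 4 of 6 markers measured, the sum was 314 to 327 in Vehicle, 888 to 893 in GLP1RA, 486 to 506 in antiIL17A and 289 to 307 in Combo. No measured marker of these 3 lists was at 0 in BM, and their part in the falls was not tested.

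*H2-K1* was at 14490, 13898 and 14326 in GLP1RA, at 19001, 19653 and 18719 in antiIL17A and at 17685, 18169 and 18331 in Combo. It fell 6.39-fold, 4.76-fold and 5.04-fold below Vehicle, and the 9 treated libraries were also below every WT library. *B2m* was at 22891, 23082 and 22688 in GLP1RA, at 29807, 29498 and 29796 in antiIL17A and at 28280, 26107 and 27115 in Combo, with falls of 5.73-, 4.41- and 4.82-fold. *H2-T23* fell to 3614 ± 88.3, 4744 ± 25.7 and 4629 ± 79.9. *H2-D1* fell least of the heavy chains, to 10577 ± 137, 12883 ± 218 and 13486 ± 86.0.

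The transporter subunits came next. *Tap1* fell to 4184, 4196 and 4207 in GLP1RA, 4083, 4108 and 3957 in antiIL17A and 3565, 3667 and 3667 in Combo. *Tap2* was at 3693, 3587 and 3730 in GLP1RA, 4132, 4336 and 4231 in antiIL17A and 4959, 5225 and 4903 in Combo. *Tap2* passed the fold limit in GLP1RA (log2 -1.38 ± 0.03) and antiIL17A (-1.17 ± 0.03) but not in Combo (-0.93 ± 0.03). *Tapbp* fell to 4856 ± 34.2, 6058 ± 207 and 6315 ± 101. *Nlrc5* again showed the largest difference, with 696, 699 and 694 in GLP1RA, 631, 637 and 750 in antiIL17A and 486, 503 and 541 in Combo. The fall of *Nlrc5* was 8.52-fold, 8.80-fold and 11.6-fold. *Erap1* was at 1837 ± 56.2, 2235 ± 41.2 and 2237 ± 71.8, log2 -0.86 ± 0.04, -0.58 ± 0.04 and -0.58 ± 0.04 against Vehicle, and was not called.

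In ATMs, the same 8 members were called higher in Vehicle than in WT, where 12.5% of all genes were, and *Erap1* was not. The median log2 fold change of the members was 1.81. The median of all genes lay at -0.21, and the members' values are to be read relative to it. Replicates did not overlap for any of the 9 (for 62.9% of all genes). The rise stood beside the neutrophil and macrophage marker values given above for these libraries.

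*Tap1* had the largest rise in ATMs, from 3114, 2824 and 2884 in WT to 19799, 20578 and 19485 in Vehicle (6.79-fold, log2 2.76 ± 0.06, adjusted p = 3.60e-15). *H2-T23* followed, from 12071, 11248 and 11956 to 66178, 64586 and 67254 (5.61-fold). *B2m* rose from 102715, 101199 and 107823 to 394665, 397277 and 439104 (3.95-fold). In each of these the lowest Vehicle library was over the highest WT library as well as over every treated library. *H2-D1* rose 3.94-fold to 233158 ± 4148 and *H2-K1* 3.31-fold to 178800 ± 1687. *Tap2* rose 3.52-fold and *Tapbp* 2.86-fold, to 19825 ± 423 and 60584 ± 2625. *Nlrc5* was less abundant, at 768, 664 and 998 in WT and 2940, 2740 and 2787 in Vehicle, and rose 3.48-fold (log2 1.80 ± 0.14). *Erap1* had 2614, 2612 and 2400 in WT and 3770, 4317 and 3460 in Vehicle, log2 0.60 ± 0.09 (adjusted p = 2.44e-05).

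Under treatment, 8 members fell in ATMs with GLP1RA, 8 with antiIL17A and 7 with Combo, while 10.9%, 13.1% and 12.2% of all genes were called lower. The members' medians were -1.62, -1.83 and -1.59. The medians over all genes were 0.19, 0.17 and 0.00. Treated and Vehicle libraries did not overlap for any member, as for 59.4%, 61.5% and 52.5% of all genes. The neutrophil marker sum was 20059 to 21283 CPM in Vehicle, 11958 to 12259 in Combo and at most 357 in the libraries of both single agents. The part of these cells in the falls was not tested.

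*H2-T23* fell with each treatment, to 11141 ± 260 in GLP1RA, 11178 ± 362 in antiIL17A and 11443 ± 288 in Combo. *H2-K1* was at 69209, 69100 and 66751 in GLP1RA, 49654, 51081 and 50549 in antiIL17A and 60157, 60002 and 63291 in Combo, falls of 2.62-, 3.55- and 2.92-fold. *H2-D1* fell to 81089 ± 453, 68109 ± 2495 and 78133 ± 901. Each heavy chain was thus far below its Vehicle libraries in all treated groups. *B2m* fell to 79756, 82223 and 85116 in GLP1RA, 87497, 89141 and 88347 in antiIL17A and 102456, 104756 and 96743 in Combo. *Tap1* fell to 4063, 3705 and 4382 in GLP1RA, 3408, 3415 and 3496 in antiIL17A and 5083, 5102 and 5034 in Combo, and all 9 treated libraries were above every WT library. *Tap2* and *Tapbp* fell with each treatment, with log2 values of -1.99, -1.98 and -1.59 for *Tap2* and -1.61, -1.79 and -1.81 for *Tapbp*. *Nlrc5* was at 931, 849 and 974 in GLP1RA, 1173, 1039 and 1040 in antiIL17A and 1352, 1387 and 1653 in Combo. It fell in both single-agent groups, and its Combo value, log2 -0.95 ± 0.13, did not pass the fold limit. Without the third Combo library, which had the highest count, that value was -1.04 and was called. *Erap1* had log2 values of -0.79, -0.62 and -0.39 and was not called.

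**Figure D3:**
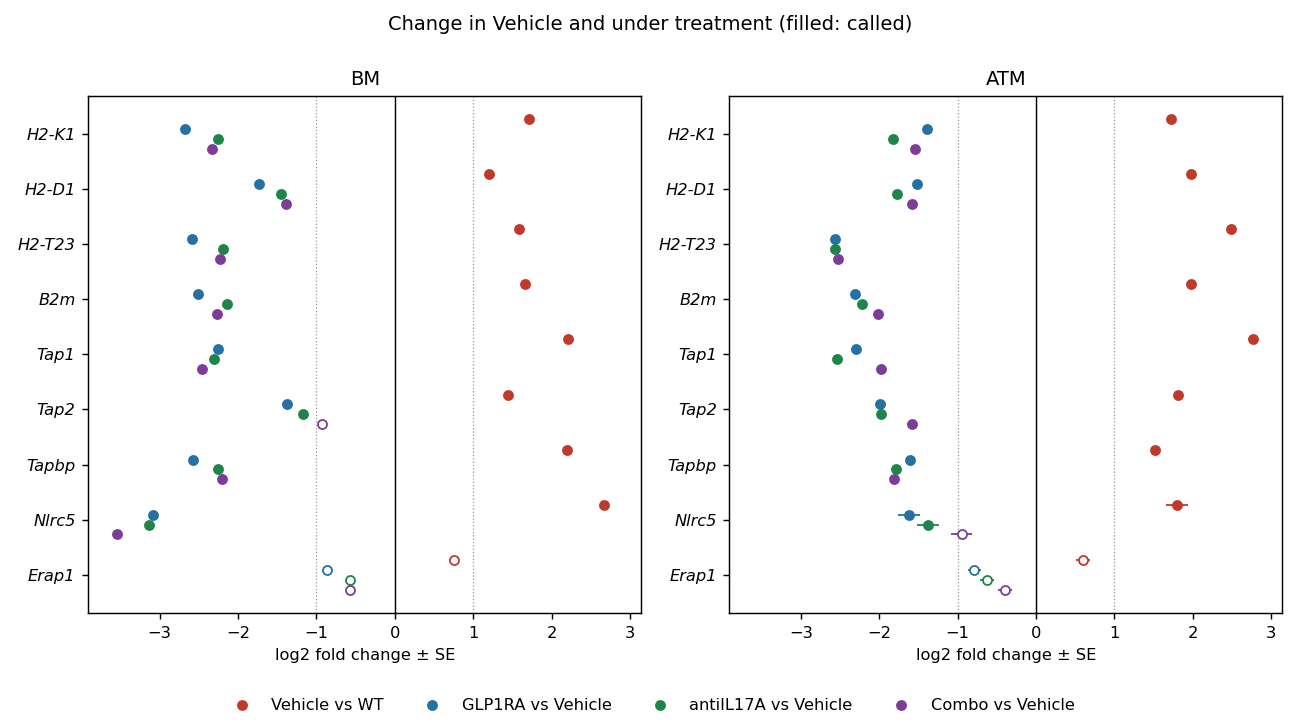
Log2 fold changes (x axis, ± SE from the quasi-likelihood F statistic) of the 9 members in BM (left) and ATMs (right) for Vehicle vs WT and for each treatment vs Vehicle, filled where called; dotted lines mark the fold limit. Members lie above 0 in Vehicle vs WT and below 0 in each treatment vs Vehicle.

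Treated *Ob/Ob* recipients were next set against the WT group, to ask how far the members were from its level. For BM this is read as the level without obesity, whereas the recipient of the WT ATMs is not settled. In BM, the members called by edgeR numbered 1 of 9 in GLP1RA, 0 in antiIL17A and 0 in Combo, where 14.7%, 6.32% and 14.3% of all genes were called in either direction. DESeq2 called 0 in each. By adjusted p alone, without the fold limit, 7, 9 and 8 members differed from WT by edgeR, the same numbers as at an unadjusted p under 0.05, and 74.7%, 66.3% and 73.3% of all genes did. The sign was mostly negative, with 7, 7 and 6 of those members below WT. *H2-T23* was the called one, at log2 -1.004 ± 0.03 in GLP1RA. It lies at the limit, and the call was lost with DESeq2's size factors and without the second WT or the third GLP1RA library. *H2-K1* and *B2m* were -0.96 and -0.85 in GLP1RA and -0.62 and -0.60 in Combo. *Nlrc5* was lowest in Combo, at -0.87 ± 0.06. *Tap2* was the exception among the transport genes, at 0.52 ± 0.03 in Combo and 0.27 ± 0.03 in antiIL17A.

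In ATMs, edgeR and DESeq2 called 0 of 9 members in GLP1RA, in antiIL17A and in Combo against WT, where edgeR called 15.1%, 18.7% and 21.6% of all genes. By adjusted p alone, 5, 7 and 6 members differed (7 in each at an unadjusted p under 0.05), and 35.5%, 38.3% and 41.1% of all genes did. In Combo, 5 of the 6 were above WT. *Nlrc5* was highest, at log2 0.85 ± 0.14, followed by *Tap1* at 0.79 ± 0.06 and *H2-D1* at 0.40 ± 0.03. Without the third WT library, whose *Nlrc5* count was the highest of its group, *Nlrc5* reached 1.03 and was called. *H2-T23* and *B2m* were at -0.04 ± 0.04 and -0.04 ± 0.04, and *Tapbp* was below WT at -0.30 ± 0.04.

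**Figure D4:**
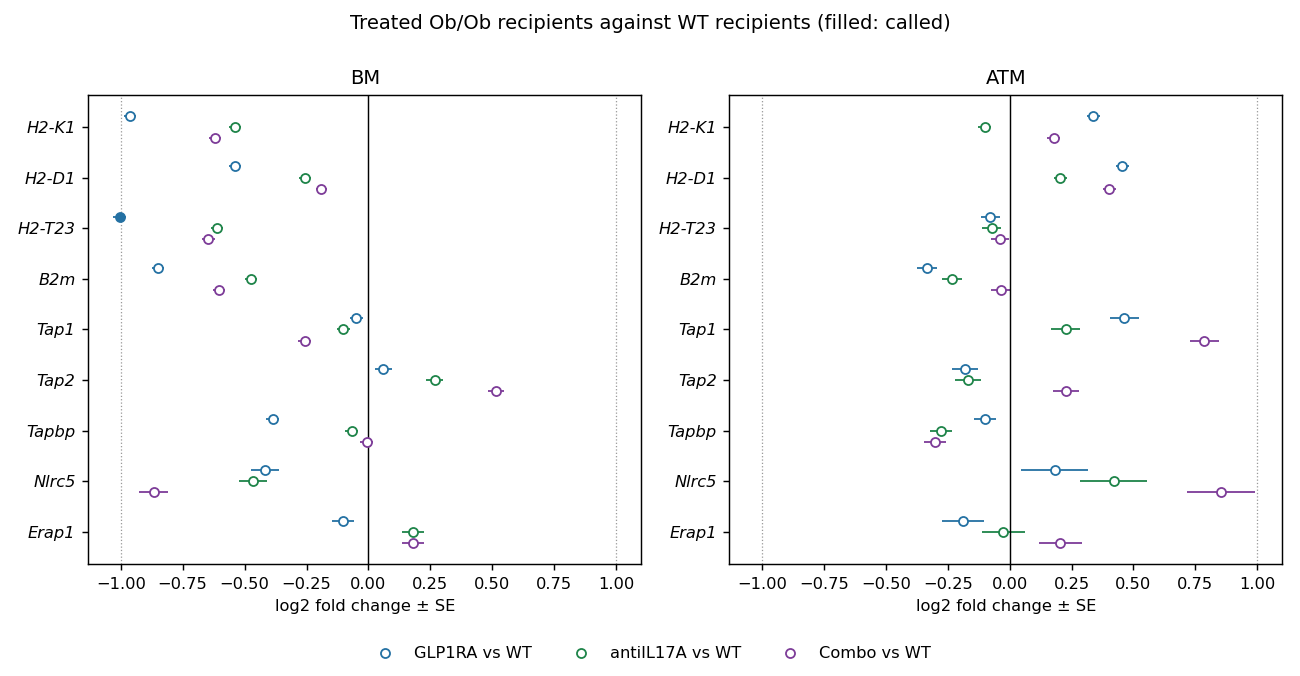
Log2 fold changes (x axis, ± SE) of the members in each treated group against WT, in BM (left) and ATMs (right), filled where called; dotted lines mark the fold limit. Heavy chains and *B2m* lie below 0 in BM, whereas *Tap1*, *Nlrc5* and *H2-D1* lie above 0 in ATMs.

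Between treated groups, edgeR and DESeq2 each called 0 of 9 members in either tissue. For Combo vs GLP1RA, Combo vs antiIL17A and GLP1RA vs antiIL17A, edgeR called 13.2%, 5.67% and 5.83% of all genes in BM and 18.7%, 14.2% and 8.1% in ATMs. At an unadjusted p under 0.05 and with no fold limit, 9, 7 and 7 members differed in BM, where 73.5%, 57.2% and 65.7% of all genes did, and 7, 7 and 5 in ATMs, where 46.9%, 37.6% and 38.6% did. By adjusted p alone these were 9, 6 and 7 in BM (71.4%, 52.5% and 62.7% of all genes) and 7, 6 and 4 in ATMs (39.8%, 28.6% and 29.8%). The members' log2 values ran from -0.45 to 0.45 in BM and from -0.24 to 0.67 in ATMs. The Combo effect minus the added log2 effects of GLP1RA and antiIL17A was called higher for 8 members in BM, where 9.59% of all genes were, and for 9 in ATMs, where 12.9% were. For *H2-K1* it was 2.59 ± 0.03 in BM and 1.67 ± 0.04 in ATMs, and for *Tap1* 2.10 ± 0.04 and 2.86 ± 0.08. In Combo these members thus stood below Vehicle by less than the added log2 differences of the 2 single-agent groups. As given above, sex and group cannot be told apart in this value. In each single-agent group the members already stood near or below WT. Against WT, *H2-K1* in BM was at -0.96 in GLP1RA, -0.54 in antiIL17A and -0.62 in Combo. With the 3 treated groups at similar levels, the value largely repeats the height of Vehicle and says little of the combination itself. *Erap1* passed in ATMs at 1.02 ± 0.12 and fell under the limit in 4 of the 12 fits that left out 1 library, as low as 0.93 without the second Vehicle library.

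Whether an effect differed between tissues was tested as an interaction over the 13076 genes in both tables, in 1 fit of the 30 libraries. The fit treated these libraries as independent, and whether BM and ATM libraries came from the same mice is not known here. Deviations of same-numbered libraries from their group means correlated across tissues at -0.02 to 0.02, so the numbers gave no pairing. For Vehicle vs WT, 0 members were called by edgeR or DESeq2 (of all genes 28.7%), and 7 differed by adjusted p alone, as at an unadjusted p under 0.05 (of all genes 56%). The values of *H2-T23* and *H2-D1*, ATMs minus BM, were 0.91 ± 0.04 and 0.78 ± 0.04 on the log2 scale, and those of *Nlrc5* and *Tapbp* -0.87 ± 0.15 and -0.68 ± 0.05. None of these is past the fold limit. *H2-K1* had a difference of 0.02 ± 0.04. For Combo vs Vehicle, *Nlrc5* was the 1 member called (of all genes 28.1%; by adjusted p alone 8 members and, at an unadjusted p under 0.05, 9, against 55.1% of genes). Its difference was 2.63 ± 0.15 (adjusted p = 2.75e-14), with a fall of 11.6-fold in BM and a value under the fold limit in ATMs. For Combo vs WT, a comparison added after the values were seen, *Nlrc5* at 1.76 ± 0.15 and *Tap1* at 1.09 ± 0.06 were called (of all genes 23.6%; by adjusted p alone 8 members and 50.6% of genes). After Combo, *Nlrc5* was at 510 ± 28.6 against 929 ± 22.6 in WT BM and at 1464 ± 164 against 810 ± 171 in WT ATMs.

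Levels between genes can be compared per kilobase of exon. The length merges the exons of all annotated transcripts of a gene and can exceed that of the transcript expressed, so close ranks depend on the annotation. *B2m* was the most abundant member in each group of both tissues, at 48007 ± 652 normalized counts per kb in WT BM and 120828 ± 4036 in WT ATMs. In BM the 3 most abundant members were *B2m*, *H2-K1* and *H2-D1*, in this order, in each group. In WT BM *H2-K1* was at 9454 ± 224, *H2-D1* at 5964 ± 163, *H2-T23* at 2509 ± 43.7, *Tapbp* at 1749 ± 21.4, *Tap2* at 931 ± 37.9, *Tap1* at 793 ± 14.2, *Erap1* at 271 ± 20.9 and *Nlrc5* at 109 ± 2.66. In ATMs *H2-D1* stood above *H2-K1* in every group, at 22928 ± 298 and 18407 ± 320 in WT. The order of the transporter genes in BM also changed with the group. *Tap1* was above *Tap2* in Vehicle BM, at 3666 ± 56.7 and 2526 ± 76.7, and below it in the other BM groups, for example at 663 ± 10.8 and 1330 ± 45.4 in Combo. In Vehicle BM *Nlrc5* reached 698 ± 23.6 per kb and passed *Erap1* at 458 ± 16.9. Neighbours in these orders were apart by more than their SDs in each group except antiIL17A BM, where *Tapbp* at 1670 ± 57.0 and *H2-T23* at 1642 ± 8.90 were not.

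Other genes of the pathway were read from lists chosen with earlier results of these data known. Of the 14 further class I heavy chain genes, 6 were in the BM table and 10 in the ATM table. In Vehicle vs WT, 4 rose and 1 fell in BM, and 7 rose in ATMs. Of all genes, 10% were called lower in BM and 22.9% in ATMs. *H2-Q4* went from 4014 ± 137 to 24593 ± 221 normalized counts in BM (log2 2.61 ± 0.03) and from 900 ± 60.2 to 6021 ± 309 in ATMs (2.74 ± 0.09). *H2-M3*, which presents formylated peptides, rose by 1.24 ± 0.05 and 1.49 ± 0.08. *H2-Q10*, a secreted class I chain, fell by 1.99 on the log2 scale in BM and rose by 2.87 ± 0.32 in ATMs. With Combo, 5 fell and *H2-Q10* rose in BM, where 6.58% of all genes were called higher, and 6 fell in ATMs. *H2-T22* and the *H2-Q* genes resemble each other closely, so single values are uncertain.

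The 5 immunoproteasome genes, which replace or cap catalytic proteasome subunits in cells exposed to interferon, moved as the members did. In Vehicle vs WT, 4 of 5 rose in BM and 5 of 5 in ATMs, with medians of 1.49 and 2.25. *Psmb8* rose by 1.38 ± 0.03 in BM and 2.55 ± 0.05 in ATMs, and *Psmb9*, which shares exon bases with *Tap1*, was at 0.98 ± 0.03 in BM, under the limit. All 5 fell with each treatment in each tissue. The 3 constitutive counterparts *Psmb5*, *Psmb6* and *Psmb7* were not called in any of these 8 comparisons, with log2 values against WT of 0.31 to 0.38 in Vehicle BM and 0.48 to 0.89 in Vehicle ATMs. Of 8 loading chaperones, 0 were called in Vehicle BM, and in Vehicle ATMs *Tapbpl* (TAPBPR) rose by 1.07 ± 0.15 while *Uggt1* and *Ganab* fell. Of 7 other peptidases, 0 were called in Vehicle BM, and in ATMs *Lnpep* rose and *Ide* fell.

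**Figure D5:**
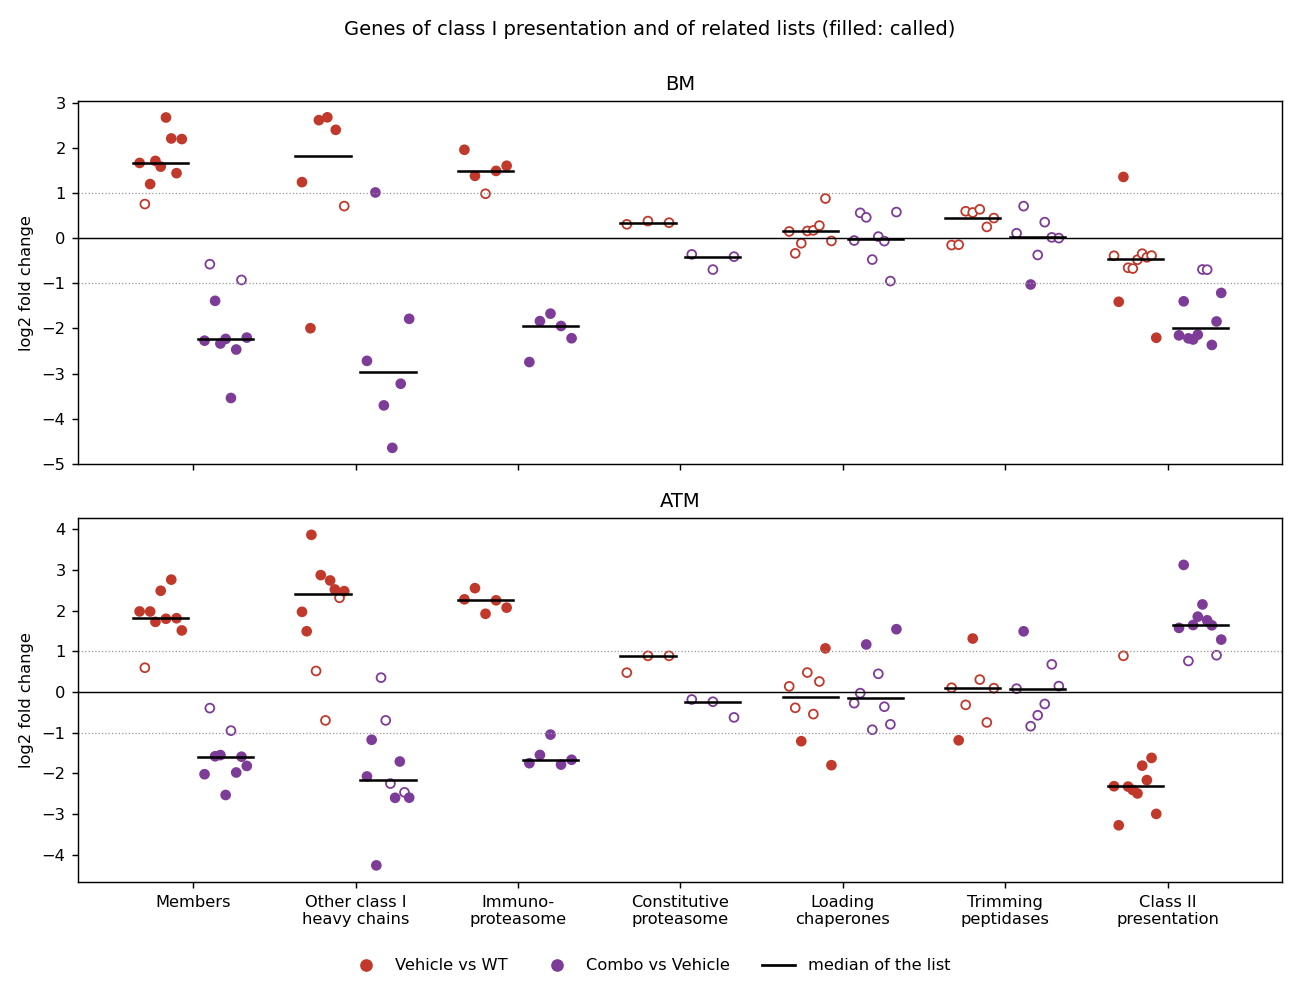
Log2 fold changes (y axis) of single genes in Vehicle vs WT (red) and Combo vs Vehicle (purple), by list, in BM (top) and ATMs (bottom), filled where called, with a bar at each list's median. Members and immunoproteasome genes move up and then down in both tissues, and class II genes lie below 0 in Vehicle ATMs.

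Genes known to act upstream of class I were measured too. *Irf1*, an interferon regulatory factor, had log2 values in Vehicle vs WT of 0.96 ± 0.03 in BM and 1.37 ± 0.06 in ATMs, past the limit in ATMs. It fell with each treatment in each tissue. Of the 12 transcription factors listed, 0 were called in Vehicle BM and 5 rose in Vehicle ATMs, among them *Rela* (1.18 ± 0.06), while the class I enhanceosome subunit *Rfx5* was at 0.08 ± 0.06 and -0.13 ± 0.38. Interferon transcripts differed by tissue. *Ifng*, the type II interferon gene, was the 1 listed ligand in the BM table, with 27.9 ± 1.15 in WT and 130 ± 12.8 in Vehicle (log2 2.22 ± 0.26), and it fell with each treatment. In ATMs *Ifng* was at 577 ± 92.7 in WT and 486 ± 126 in Vehicle (-0.25 ± 0.17, not called) and rose to 1966 ± 51.8 in Combo (2.01 ± 0.18 against Vehicle), where members had fallen. *Ifnb1*, a type I interferon gene, was at 58.2 ± 19.7 in WT, 1353 ± 114 in Vehicle (4.54 ± 0.35), 638 ± 44.7 in GLP1RA, 46.5 ± 22.4 in antiIL17A and 105 ± 19.0 in Combo.

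The class II list holds genes of peptide presentation to CD4+ T cells. In Vehicle BM 1 of 10 was called higher (*Ctss*) and 2 lower, with a median of -0.45. In Vehicle ATMs 9 of 10 fell, with a median of -2.32, including *Ciita*, the class II transactivator (-3.27 ± 0.23), and *H2-Ab1* (-2.41 ± 0.03). With Combo, 8 of 10 fell in BM and 8 of 10 rose in ATMs, where 14.1% of all genes were called higher. All 11 interferon-stimulated genes of the type I list rose in Vehicle and fell with each treatment in both tissues. On the side of the cells that read class I, *Pirb*, an inhibitory receptor of myeloid cells, rose in Vehicle in both tissues, by 1.22 ± 0.02 in BM. *Lilrb4a*, another inhibitory receptor of myeloid cells, rose in both as well, by 1.71 ± 0.03 in BM, but is not taken here as a receptor for class I. *Cd8a*, the coreceptor of the T cells that recognize class I, was at 0.06 ± 0.09 in Vehicle BM, fell in Vehicle ATMs (-2.29 ± 0.34) and rose there with each treatment. The T cell marker sum in ATMs was 67.6 to 78.8 CPM in Vehicle and 602 to 620 in Combo, with 5 of 6 markers measured and none at 0.

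The remaining lists were counted in the same way, for genes called in Vehicle vs WT. The class I-like molecules numbered 1 higher and 3 lower of 6 tested in BM and 1 higher and 3 lower of 6 in ATMs. Among them *Procr* rose in both tissues (4.37 ± 0.22 and 1.81 ± 0.11) and *Fcgrt*, the neonatal Fc receptor, which also pairs with B2m, fell in both (-1.72 ± 0.07 and -1.83 ± 0.07). The shares of all genes called lower, given with the heavy chains, apply here too. The list of receptors for class I, which also held *Lilrb4a*, numbered 2 higher and 3 lower of 10 and 2 higher and 6 lower of 10. Interferon receptors and kinases numbered 0 higher and 0 lower of 7 and 1 higher and 0 lower of 7, the 1 in ATMs being *Ifngr2* (1.33 ± 0.08). The genes responsive to interferon gamma numbered 8 higher and 0 lower of 9 and 8 higher and 0 lower of 10, with medians of 3.05 and 3.22, and the interferon ligands 1 higher and 0 lower of 1 and 1 higher and 0 lower of 4.

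Genes were ranked by how closely their log2 CPM over the 15 libraries of a tissue followed the mean profile of the members, leaving out genes whose mean count was under 10. In BM the 5 closest were *Rnf114*, *Ly6e*, *Helz2*, *Irgm2* and *Parp12*, with Pearson r between 0.997 and 0.998. In ATMs they were *Upp1*, *Rhob*, *Cxcl9*, *Lgals9* and *Il18bp*, with r between 0.991 and 0.998. These 15 points are 5 groups of 3, so r mostly reflects the group means. Among the members themselves r with the mean profile was lowest for *Erap1* and *Nlrc5* in ATMs, at 0.896 and 0.925.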

How the data were processed

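PolyA RNA-seq was performed on BM cells and sorted ATMs. Per the labels and the study's methods, alignment was to mm10 by STAR (2.7.2a), and the authors made the deposited counts with featureCounts (2.0.1) on GENCODE M22, without strand, keeping mapping quality 10 or more and counting a read on several genes for each. Here the raw counts of each tissue's 15 libraries were fitted in 1 model with edgeR (4.0.16, R 4.3.3) by its quasi-likelihood test after TMM scaling, and the tissue difference was fitted over all 30 libraries. P-values were adjusted over all genes by the Benjamini-Hochberg method. A gene was called at an adjusted p below 0.05 and an absolute log2 fold change above 1, and its SE comes from the F statistic. The low-count filter removed 0 genes. Normalized counts are counts over the effective library size, times the tissue's mean effective size. DESeq2 (1.42.0), other scalings and filters, a replicate block and leaving out each library were tried. The code was tested on simulated data. The text names the 9 members, genes of the lists as examples, and the 5 genes per tissue nearest to the members' mean profile. The members and lists were chosen with earlier results of these data known. Annotation, exon lengths and overlaps come from GENCODE M21, since M22 was not used here. P-values measure the spread between the 3 libraries of a group, which the labels call biological replicates; the spread was small in BM (coefficient of variation 3.51%), and shared or pooled material was not tested. No column of another series was used.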

Additional observations from a re-analysis of the deposited data

Results flagged for a closer look

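The values here are differences in log2 fold change, ATMs minus BM, each of which passed an adjusted p below 0.05 in the interaction test of the 30-library edgeR fit. In Vehicle vs WT the difference was 0.91 for *H2-T23*, 0.78 for *H2-D1*, 0.56 for *Tap1*, 0.38 for *Tap2* and 0.32 for *B2m*, and it was -0.68 for *Tapbp* and -0.87 for *Nlrc5*. In Combo vs Vehicle it was 2.63 for *Nlrc5*, 0.83 for *H2-K1*, 0.53 for *Tap1*, 0.43 for *Tapbp* and 0.29 for *B2m*, and it was -0.15 for *H2-D1*, -0.26 for *H2-T23* and -0.62 for *Tap2*. In Combo vs WT, added after the values were seen, it was 1.76 for *Nlrc5*, 1.09 for *Tap1*, 0.84 for *H2-K1*, 0.65 for *H2-T23*, 0.63 for *H2-D1* and 0.61 for *B2m*, and it was -0.25 for *Tapbp* and -0.25 for *Tap2*. By the same test 56%, 55.1% and 50.6% of all genes differed between the tissues in these 3 comparisons.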

How the results depend on the processing

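The numbers of members called in Vehicle vs WT, in each treatment vs Vehicle and for the departure from additive effects stayed within 1.5 times in all settings tried. Of 2493 repeats of a member's log2 fold change, 2400 kept direction and side of the threshold, 74 newly passed it and 9 no longer did. Among the 2400, 171 came from the setting without a low-count filter, which equals the main fit because the filter removed 0 genes. Of these 74, 72 came from dropping the fold limit itself and 2 from leaving out a library. With no fold-change limit, 8 members were called in BM Combo vs WT, 7 in BM GLP1RA vs WT, 9 in BM antiIL17A vs WT, 9 in BM Combo vs GLP1RA, 6 in BM Combo vs antiIL17A and 7 in BM GLP1RA vs antiIL17A. In ATMs these numbers were 6, 5, 7, 7, 6 and 4, and for the tissue differences 7, 8 and 8. In the same order this limit passed 73.3%, 74.7%, 66.3%, 71.4%, 52.5% and 62.7% of all BM genes, 41.1%, 35.5%, 38.3%, 39.8%, 28.6% and 29.8% of all ATM genes, and 56%, 55.1% and 50.6% for the tissue differences. With DESeq2's size factors in edgeR, with DESeq2 and with the compared groups' libraries alone, 0 members were called in BM GLP1RA vs WT. Leaving out 1 library gave 0 to 1 there and 0 to 1 in ATM Combo vs WT. Sign changes occurred in 10 repeats, all of values near 0. *Tapbp* in BM Combo vs WT became 0.00232, 0.00178 and 0.00492 without WT replicate 2, WT replicate 3 and Combo replicate 3, with -0.0182 as the lowest value without 1 library. In ATM Combo vs WT, *H2-T23* became 0.00363 and *B2m* 0.00631 with the compared groups alone. *Erap1* in ATM antiIL17A vs WT became 0.00865 with at least 10 counts in every library and 0.0142 without antiIL17A replicate 1, with -0.0657 as the lowest without 1 library. The tissue difference of *H2-K1* in Vehicle vs WT became -0.00254 without BM WT replicate 2 (at most 0.0427 without 1 library), and that of *Erap1* in Combo vs WT -0.0120 with DESeq2's size factors in edgeR and -0.0116 with DESeq2. The cause was not tested. A replicate block gave 8 members in BM Vehicle vs WT and changed no call on a member; same-numbered libraries had deviations correlated at -0.09 to 0.21 in BM and -0.07 to 0.03 in ATMs, so the numbers did not pair them. With 3 libraries per group and the larger spread of the ATM libraries, small differences in ATMs are less certain than in BM.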
